A study of Mus musculus with 2 samples.

Results

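The genes described here encode mTORC1 and the proteins that report amino acid supply to it, together with GCN2, a second amino acid sensor. They were given as 36 named genes by their role, with earlier results of these data known but no threshold on measured values: the subunits of mTORC1, the Rag GTPases, Ragulator, GATOR1, GATOR2, the sestrins and CASTOR1, the TSC complex with Rheb, the folliculin complex, the S6 kinases, Rictor and GCN2. Of these, 34 had a probe set with that gene symbol, among 18193 genes so named on the array. Rragb and Rps6kb1 were not analysed here.

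RNA from whole pancreas was measured on 2 Affymetrix Mouse Genome 430 2.0 arrays, 1 for a control group and 1 for a threonine-deficient group of male offspring of C57BL/6J mothers. From embryonic day 12.5 to 14.5 the mothers received control diet for the control group and threonine-deficient diet for the other. Threonine is an essential amino acid. All offspring were weaned at 3 weeks, ate control diet until 10 weeks and were not themselves treated. Each array held a single pool of RNA, and the sources used here do not give the number of animals behind it. There were therefore no replicates, no test between the groups could be made, and every difference below is between these 2 pools.

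mTORC1 is a protein kinase complex that promotes protein synthesis and restrains autophagy when nutrients are plentiful. Amino acids bring it to the lysosome through the Rag GTPases, which sit on the Ragulator scaffold. There Rheb switches the kinase on. GATOR1 turns the Rag GTPases off, GATOR2 opposes GATOR1, and the sestrins and CASTOR1 bind GATOR2 when leucine or arginine is short. The TSC complex turns Rheb off. GCN2 senses uncharged transfer RNA and slows translation by phosphorylating the initiation factor eIF2. The pancreas draws heavily on amino acids, since its acinar cells make very large amounts of secreted protein.

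The deposited values were MAS5 signals, a linear brightness per probe set. Scaling by the authors had left the same trimmed mean on each array, with a median signal of 165 for control and 184 for threonine-deficient RNA. Signals below 264.9 were raised to that floor, since low signals cannot be told from background, and a ratio with 1 pool at the floor is a lower bound. The log2 ratio throughout is that of the threonine-deficient over the control pool, from the brightest probe set of each gene. The local spread is a scaled median absolute deviation, taken over the log2 ratios of the 500 genes nearest in signal, and serves as a measure of scatter in place of replicates. Markers of acinar cells were bright in both pools, with Cpa1, a digestive carboxypeptidase, at 168872 in control and 173591 in threonine-deficient RNA.

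The amino acid sensing genes differed between the pools by about as much as genes in general, with a median absolute log2 ratio of 0.20 against 0.22 over all genes. On floored signals, 30 of the 33 members above the floor in 1 pool or both were within 1.5-fold. Those 30 include the lower bounds Mlst8, Tbc1d7 and Rps6kb2, which may differ by more. Of all 10758 genes above the floor in 1 pool or both, 12.6% were further apart. The members' median log2 ratio was 0.10 against 0.00 over those genes. Wdr24, of GATOR2, was the only member at least 2-fold higher and none was 2-fold lower, where 1.28% and 0.874% of all genes were. At 1.5-fold, 2 members, Wdr24 and the sestrin gene Sesn3, were higher and 1, Wdr59 of GATOR2, was lower, against 7.2% and 5.36% of all genes. Wdr24 and Wdr59 had a pool below the floor and could be counted only because they differed. Of the 28 members above the floor on both arrays, Sesn3 alone was 1.5-fold higher and none was lower, against 5.42% and 4.81% of genes. With no floor, Mlst8 and Wdr59 were also past 2-fold, at −1.72 and −1.19, and Tbc1d7 was past 1.5-fold, at 0.70. With the floor at the 75th percentile Wdr24 and Sesn3 came to 0.15 and 0.10. Members that inhibit mTORC1 had a higher median log2 ratio (0.18) than those that activate it (−0.04), but this order turned in the next brightest probe sets of the genes that had them.

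**Figure D1:**
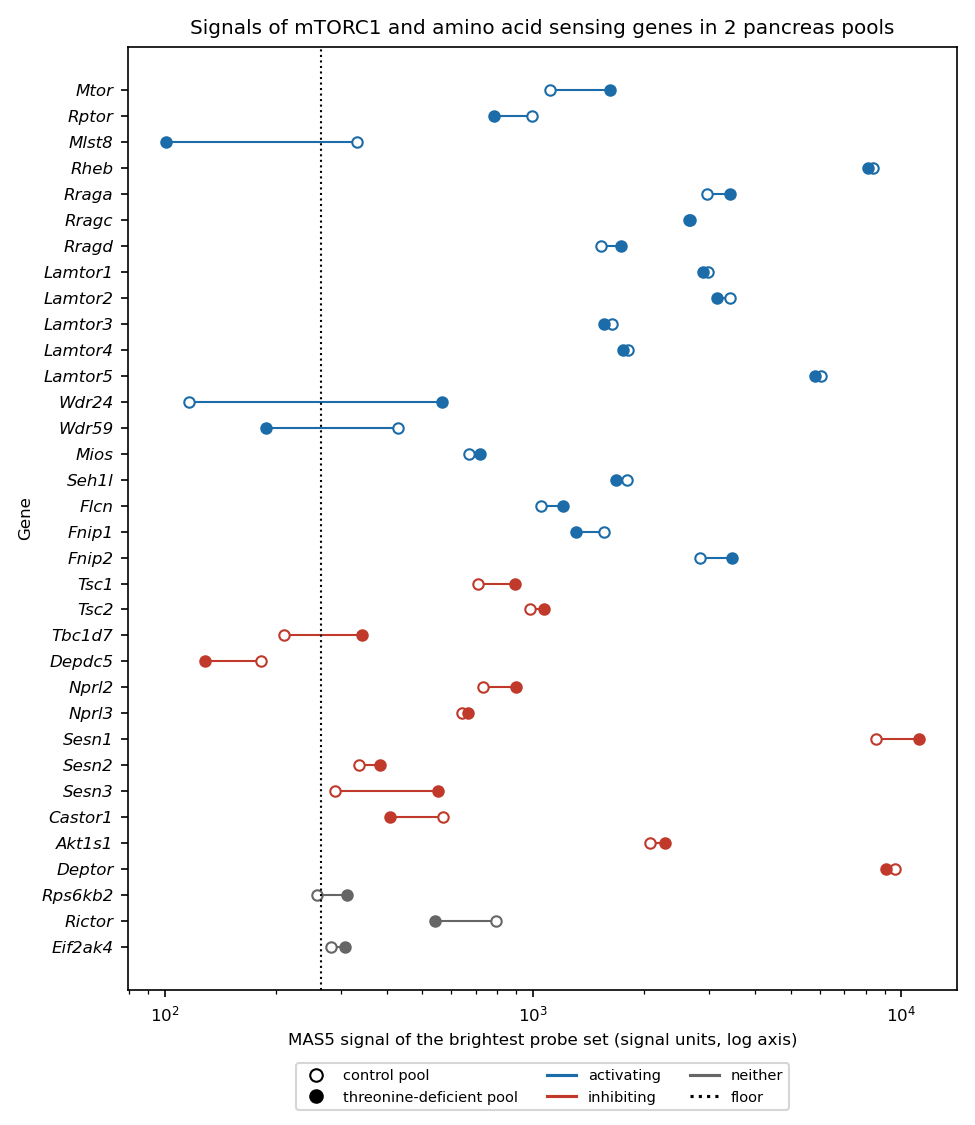
MAS5 signal of the brightest probe set (log axis) of the 34 members with a probe set, in the control pool (open circles) and the threonine-deficient pool (filled circles), 1 array each, coloured by their part in mTORC1 signalling, with the floor of 264.9 dotted. The 2 signals of each Rag and Ragulator gene lie close together, and the longest lines belong to Mlst8, Wdr24 and Wdr59, each with 1 pool below the floor.

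The kinase complex itself gave mixed values. Mtor, which encodes the kinase, had a signal of 1111 in control and 1612 in threonine-deficient RNA. The second value was 1.45-fold higher, with a log2 ratio of 0.54 and a local spread of 0.29. Its next probe set gave the same direction, from 312 to 531 (0.76), and Mtor had the largest ratio of the 11 members whose second probe set was also above the floor on both arrays. Rptor, which encodes raptor, the subunit that recruits substrates, went the other way, from 989.9 to 783 (−0.34, local spread 0.34). Mlst8, a subunit that stabilises the kinase, read 332 in the control pool and 101, below the floor, in the other, at least 1.26-fold lower. The core subunits thus lay in different directions, and neither Rptor nor Mlst8 had a further probe set above the floor.

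The 250 bases before the RefSeq start of Mtor (GRCm38.p6, chr4:148448332-148448581, plus strand) are shown because Mtor had the largest ratio that kept its direction in a further probe set. Capitals mark GC boxes, GGGCGG or its complement CCGCCC, the motif of Sp1-like factors.
Mtor: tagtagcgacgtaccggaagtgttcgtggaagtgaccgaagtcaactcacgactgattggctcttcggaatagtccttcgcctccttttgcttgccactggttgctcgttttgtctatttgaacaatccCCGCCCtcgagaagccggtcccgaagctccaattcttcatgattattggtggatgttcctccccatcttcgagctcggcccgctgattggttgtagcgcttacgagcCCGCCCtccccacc
It holds 2 such boxes. Over the RefSeq windows of 300 bases, from 250 before to 50 after a start, the box occurred on either strand in 18 of 33 windows of 31 members and in 35.7% of all 32851 windows. Windows of Lamtor3, Wdr24, Seh1l, Deptor and Rps6kb2 were not used here.

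In the lysosomal platform of Rheb, the Rag GTPases and Ragulator, Rheb and Ragulator were the most even parts. Rheb, the GTPase that switches the kinase on, had a signal of 8384 in control and 8129 in threonine-deficient RNA (−0.04, local spread 0.16). Among the Rag GTPases, Rragc read 2655 and 2663, a log2 ratio of 0.00. Rraga read 2965 and 3415 (0.20, local spread 0.21). Both lay within the local spread, as did Rragd, with 1532 and 1735 (0.18, local spread 0.26). A dimmer probe set of Rragd gave the opposite sign, from 366 to 278 (−0.39).

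All 5 Ragulator genes, which encode the scaffold that anchors the Rag GTPases to the lysosome, were lower by a small amount. Lamtor1, whose product carries the lipid anchor, read 2977 and 2888 (−0.04), and its other probe sets gave 0.13 and −0.09. Lamtor2 had the widest difference, from 3426 to 3160.1 (−0.12), and Lamtor3, its partner in a heterodimer, went from 1632 to 1558 (−0.07). Lamtor4 read 1809 and 1753 (−0.05). Lamtor5 read 6052 and 5839.55 (−0.05), with −0.03 in its other probe set. Every Ragulator difference was below the local spread, which was 0.17 to 0.26 for these genes. Their median of −0.05 equals that of the 3801 genes with both signals over 1000. Over the 8 measured Rag and Ragulator genes the median absolute log2 ratio was 0.06, compared with 0.14 over those 3801 bright genes. It was 0.05 for Ragulator alone and 0.18 for the 3 measured Rag genes alone.

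The hexamer CACGTG is the core of the element bound by TFEB and TFE3, transcription factors that turn on lysosomal genes. It reads the same on both strands and occurred in the windows of 7 members, against 7.15% of all windows. Besides Rragb these were 4 genes of the lysosomal platform, Fnip1 of the folliculin complex and Tbc1d7 of the TSC complex. Stretches of 46 bases upstream of the start of these 6 measured genes are given, with the hexamer in capitals, because most of them come from that platform. They lie, in GRCm38.p6, at chr5:24842432-24842477 on the minus strand for Rheb, chr4:123917301-123917346 on the plus strand for Rragc and chr7:101905749-101905794 on the plus strand for Lamtor1. Those of Lamtor4 and Fnip1 are at chr5:138255342-138255387 and chr11:54438084-54438129, both on the plus strand, and that of Tbc1d7 is at chr13:43171529-43171574 on the minus strand.
Rheb: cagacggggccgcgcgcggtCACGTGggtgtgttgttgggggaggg
Rragc: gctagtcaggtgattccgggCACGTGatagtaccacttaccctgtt
Lamtor1: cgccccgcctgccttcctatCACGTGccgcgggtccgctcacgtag
Lamtor4: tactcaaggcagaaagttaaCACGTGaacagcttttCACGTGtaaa
Fnip1: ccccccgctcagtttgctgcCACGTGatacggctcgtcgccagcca
Tbc1d7: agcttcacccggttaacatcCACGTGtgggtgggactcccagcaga
Lamtor4 carried 2 copies in this stretch. The median log2 ratio of these 6 genes was −0.04. Since 4 of them belong to the platform, this value cannot be set against that of the platform as a whole.

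GATOR2, which frees the Rag GTPases from GATOR1, held the highest and the lowest log2 ratios on floored signals, Wdr24 and Wdr59, both dim and both bounds. Wdr24 had a signal of 116 in control RNA, below the floor, and 567 in threonine-deficient RNA, at least 2.14-fold higher. Wdr59 had 429 in the control and 188, below the floor, in the other, at least 1.62-fold lower. Each was read by a single probe set, so no second reading exists for either. Mios read 670.2 and 717 (0.10), with −0.10 in its other probe set. Seh1l, which also serves the nuclear pore, read 1801 and 1682 (−0.10). Its further probe sets above the floor on both arrays ranged from −0.15 to 0.02, and 1 more, with the threonine-deficient signal at the floor, gave −0.53. The brighter GATOR2 genes therefore differed by no more than 1.07-fold in their brightest probe sets, and the dim ones lay in opposite directions.

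Folliculin and its partners act on RagC and RagD and help amino acids activate mTORC1. Flcn read 1049 and 1205 (0.20) in a probe set with the suffix _x_at, which may be shared with other transcripts. A nearly as bright probe set without that suffix went from 1178 to 827 (−0.51), so the direction for Flcn was not settled. Fnip1 read 1559.8 and 1305 (−0.26), with 0.14 and −0.20 in other probe sets. Fnip2, read once, went from 2829.6 to 3457 (0.29, local spread 0.22) and was the member of this complex beyond its local spread.

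**Figure D2:**
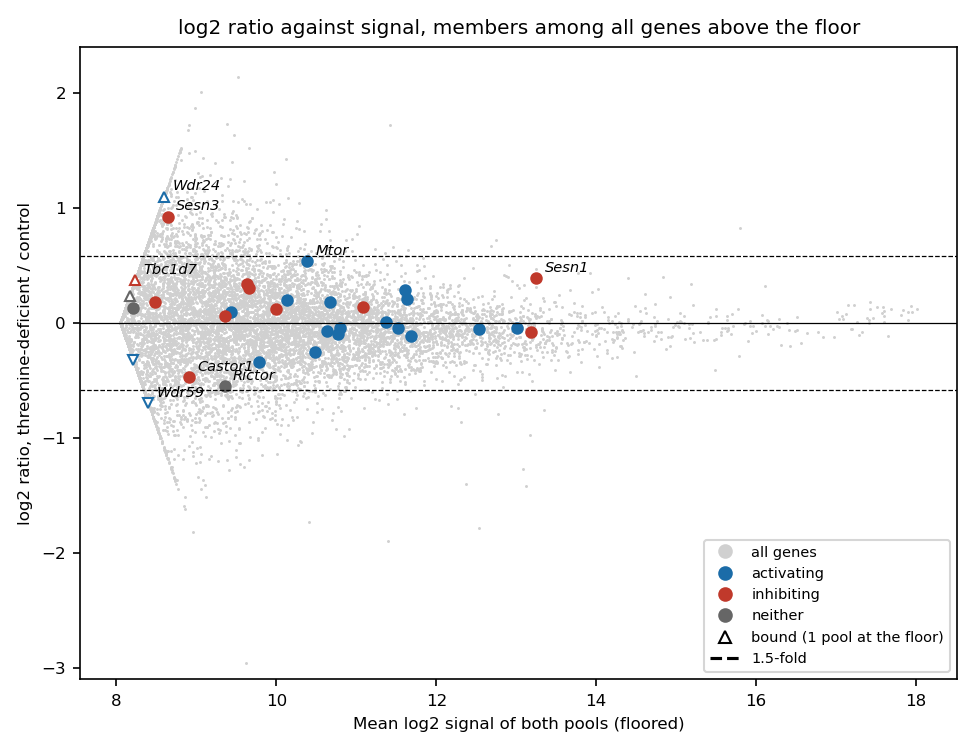
Log2 ratio of the threonine-deficient over the control pool (vertical axis) against mean log2 signal (horizontal axis) for 10758 genes above the floor on at least 1 array (grey) and the 33 members among them, coloured by part; open triangles are bounds and dashed lines mark 1.5-fold. Members past 1.5-fold, Wdr24, Sesn3 and Wdr59, lie at the dim end where all genes scatter most. Sesn1, among the brightest members, lies at 0.39, but its other bright probe sets gave 0.03 and 0.02.

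Among the inhibitors, the TSC complex, which turns Rheb off, had 3 members with higher signals in the threonine-deficient pool in their brightest probe sets. Tsc1 read 708 and 892 (0.33, local spread 0.38). Tsc2, the subunit with the GTPase-activating domain, read 983 and 1069.7 (0.12, local spread 0.33), both within the scatter of genes of like signal. Tbc1d7, the third subunit, read 210.5, below the floor, and 342, at least 1.29-fold higher. The next probe sets of Tsc1 and Tbc1d7 had their threonine-deficient signal at the floor and gave −0.26 and −0.05, the opposite direction.

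GATOR1, the complex that turns RagA and RagB off, was measured through 2 of its 3 genes. Nprl2 read 731 and 900.0 (0.30, local spread 0.37), and Nprl3 read 642 and 667 (0.06, local spread 0.39). Depdc5 was below the floor on both arrays in all 6 of its probe sets, 182 and 129 in the brightest, so it has no ratio here. Neither measured gene exceeded its local spread, and each was read once.

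The sensors gave the highest value measured above the floor on both arrays. Sesn3 read 290.15 in control and 551 in threonine-deficient RNA, 1.90-fold higher (0.92, local spread 0.52). The control signal lay just above the floor, and the other probe set of Sesn3 was below it on both arrays. Sesn2, which encodes a leucine-binding sestrin and is induced by ATF4 under amino acid stress, read 337 and 383 (0.18, local spread 0.45). Sesn1, a sestrin gene also induced by p53, read 8524 and 11179 (0.39, local spread 0.15) in its brightest probe set.

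Sesn1 was the only member more than 2 local spreads from 0, among 28 members above the floor on both arrays. Over all 8834 such genes, 2.54% were higher and 3.34% lower by that much. Its other bright probe sets did not repeat the difference: they read 8589 and 8795 (0.03), and 6024 and 6123 (0.02). A dim probe set, with its threonine-deficient signal at the floor, gave −0.46. Castor1, which encodes the arginine sensor, went from 568 to 409 (−0.47, local spread 0.49) and was the sensor gene with a lower signal. The 3 sestrins thus read higher and Castor1 lower in their brightest probe sets, with only Sesn1 beyond 2 local spreads and only in that probe set.

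The 250 bases upstream of Sesn3 (GRCm38.p6, chr9:14276051-14276300, plus strand) are shown because it had the largest ratio above the floor on both arrays. Capitals again mark the GC box.
Sesn3: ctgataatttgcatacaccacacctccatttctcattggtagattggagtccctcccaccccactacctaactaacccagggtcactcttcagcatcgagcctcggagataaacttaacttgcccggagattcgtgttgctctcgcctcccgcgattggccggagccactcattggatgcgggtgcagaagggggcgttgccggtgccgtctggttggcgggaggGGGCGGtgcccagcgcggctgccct
The letters TGATGCAA, a composite element to which ATF4 can bind, were in none of the 33 member windows on either strand and in 0.895% of all windows. The letters TGTTTAC, part of the site of FOXO factors, were in 1 member window, that of Sesn1, and in 3.65% of all windows. These are matches of letters in a short window only.

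Of the inhibitory partners of the kinase, Akt1s1, which encodes PRAS40, read 2072 and 2273.5 (0.13, local spread 0.22), with −0.26 in its other probe set. Deptor read 9599 and 9101 (−0.08, local spread 0.15). Deptor had 5 probe sets above the floor on both arrays, and the other 4 gave −0.26, −0.35, 0.01 and 0.62. Its 5 readings thus lay in both directions.

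**Figure D3:**
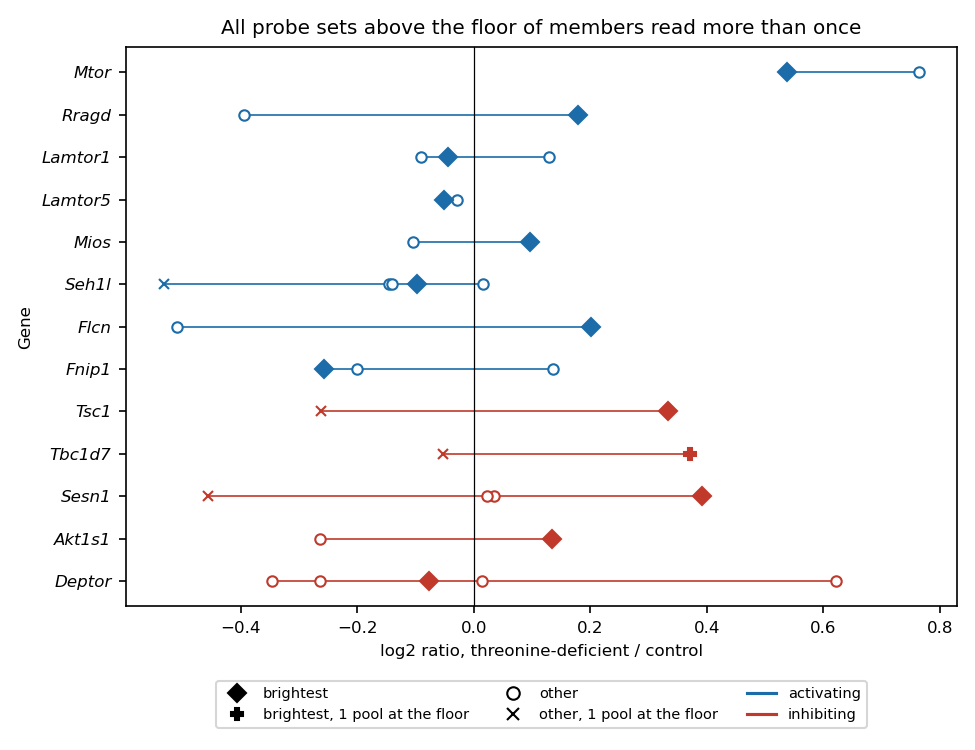
Log2 ratios (horizontal axis) of every probe set above the floor on at least 1 array, for the 13 members with more than 1 such probe set; diamonds and plus signs are the brightest, circles and crosses the others, and plus signs and crosses have 1 pool at the floor. Only in Mtor and Lamtor5 do all such probe sets lie on the same side of 0.

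The remaining members act beside or below mTORC1. Rictor, a subunit of the related complex mTORC2, went from 793 to 541 (−0.55, local spread 0.40), 1.47-fold lower, in the only one of its 5 probe sets above the floor. Rps6kb2, which encodes an S6 kinase, read 258, below the floor, and 311, at least 1.18-fold higher. Eif2ak4, which encodes GCN2, read 282 and 309 (0.13), just above the floor in both pools. None of these reached 1.5-fold.

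Activating parts were compared with inhibiting parts as 2 sets. The activating set held mTOR, raptor, mLST8, Rheb, the Rag GTPases, Ragulator, GATOR2 and the folliculin complex, 19 of 20 genes above the floor in 1 pool or both. The inhibiting set held TSC, GATOR1, the sestrins, CASTOR1, PRAS40 and DEPTOR, 11 of 12 genes. Of the activating genes 8 had a log2 ratio above 0, and of the inhibiting genes 9, where 50.1% of all genes did. The median was −0.04 for activating and 0.18 for inhibiting genes, a difference of −0.23, or −0.20 over the 26 genes above the floor on both arrays. With 1 pool a group, no test of this difference could be made.

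The order did not hold in repeat readings. For 13 of these genes, 8 activating and 5 inhibiting, a second probe set exceeded the floor in 1 pool or both. Over these genes the brightest probe sets gave a difference of −0.31, and the next brightest gave 0.26, with medians of −0.01 for activating and −0.26 for inhibiting genes. Tsc1 and Tbc1d7 passed the floor in only 1 pool in their next probe sets, Tbc1d7 also in its brightest, and Tsc1 was the inhibiting median in both readings. Over the 11 genes above the floor on both arrays in both probe sets, 8 activating and 3 inhibiting, the difference was −0.11 in the brightest and 0.26 in the next brightest. Of these 11 genes, 4 had the same sign in both readings and 7 had opposite signs. Over 3246 genes the same sign was found in 52.1%. The error per probe set, from the differences between such pairs, had a standard deviation of 0.26 (log2) for the members and 0.34 for all genes. This covers differences between probe sets on the same arrays, and neither error shared by a whole array nor variation between animals.

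**Figure D4:**
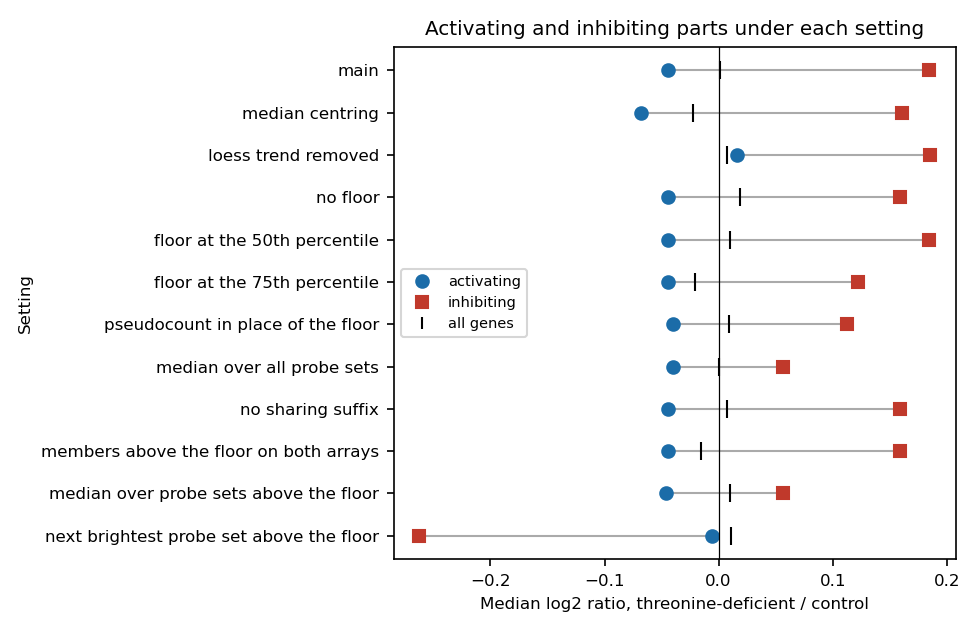
Median log2 ratio (horizontal axis) of activating (circles) and inhibiting (squares) genes and of all genes (ticks) under the main setting and 11 alternatives. Inhibiting genes lie to the right in 10 of the 11 alternatives, and the order turns with the next brightest probe set, where 8 activating and 5 inhibiting genes remain.

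The scatter of the members followed signal. The 17 members with both signals over 1000 had a median absolute log2 ratio of 0.12, and none reached 1.5-fold. The 11 others above the floor on both arrays had 0.30, and 1 of them, Sesn3, reached 1.5-fold. The same split over all genes gave 0.14 over 3801 genes, 2.37% of them past 1.5-fold, and 0.28 over 5033 genes, 16.2% past it, so members and other genes of like signal had scatter of similar size.

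Other genes of the pathway were read from a separate list of 51, of which 44 were above the floor on at least 1 array. Their median log2 ratio was −0.05, with 19 above and 25 below 0. On floored signals none reached 2-fold, where 1.28% of all genes were higher and 0.874% lower by that much. Past 1.5-fold on floored signals, where 12.6% of all genes were, lay 1 gene of the 44. This was Kptn, of the KICSTOR complex that holds GATOR1 at the lysosome. It read 456 and 139, below the floor, at least 1.72-fold lower, and is named because of that value. The highest ratios above the floor on both arrays were 0.57 for Tfeb, from 431 to 641, and 0.57 for Bmt2, which encodes the S-adenosylmethionine sensor SAMTOR. Ddit4, which encodes REDD1, a stress-induced inhibitor of mTORC1, followed with 3006 and 4439 (0.56, local spread 0.19), and Rhebl1, a relative of Rheb, had 0.52.

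The lowest were Castor2 (−0.54), the kinase gene Stk11 (−0.44), Akt1 (−0.39) and Slc38a9 (−0.38), which encodes a lysosomal arginine sensor. Other probe sets gave −0.08 for Bmt2, 0.20 for Akt1 and 0.13 for Slc38a9, each opposite in sign to the brightest. They gave −0.18 for Castor2 and −0.61 for Stk11, the same sign. Ddit4 and Sec13, a GATOR2 and coat protein gene (−0.36, local spread 0.16), were the list members more than 2 local spreads from 0, and both were read by 1 probe set above the floor. Sec13 is named because of that value. Of all genes above the floor on both arrays, 2.54% were higher and 3.34% lower by more than 2 local spreads.

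Markers of other cell types differed between the pools. In bulk RNA, fewer cells of a type and less RNA per cell cannot be told apart. Of 8 adipocyte markers, 5 were above the floor and all 5 had lower threonine-deficient signals, with a median log2 ratio of −1.06 and summed signals of 31224 for control and 13880 for threonine-deficient RNA. Lep was below the floor on both arrays, and Cidec (604 and 95) passed it in the control pool only. All 5 islet hormone genes were lower (median −0.29, summed signals 171654 and 141326), Ppy by very little (−0.02). Of 7 duct markers, 3 were above the floor and higher, with a median of 0.89 and summed signals of 1828 and 3447. Car2 alone went from 349 to 1541 and Krt19 had 0.30, while Cftr and Krt7 were below the floor. The median was that of Sox9, which read 275, just above the floor, and 511, with 0.33 in a further probe set. Of 6 endothelial markers 5 were higher (median 0.36, summed signals 1872 and 2785) and Vwf was below the floor. Kdr, at that median, read 61, below the floor, and 341, and could be counted only because it differed. Cdh5, Tek and Emcn were within their local spreads, and Pecam1 (0.57, local spread 0.41) was not. Over all genes above the floor on at least 1 array, 50.1% had a log2 ratio above 0. Macrophage markers were higher in 5 of 6 (median 0.36, summed signals 6557 and 7118). Lyz2 was lower, from 3096 to 2300 (−0.43, local spread 0.22). Cd68, Cd163 and Mrc1 were within their local spreads. Adgre1 (0.67) and Csf1r (0.51) exceeded theirs, but other probe sets of Csf1r gave 0.25 and 0.10. Of the B and plasma cell markers, Cd79b (0.04) and Ms4a1 (0.08) hardly differed, and Jchain (−0.79) and Mzb1 (−1.12) were lower. Cd79a was below the floor, and the summed signals were 5802 and 3839. Of the stellate cell markers 3 were above the floor, with a median of 0.01 (21056 and 20921 summed). The 7 measured acinar markers had a median of 0.10, with 6 higher and summed signals of 1216085 and 1294694. The part of these shifts in the values of the amino acid sensing genes was not tested.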

How the data were processed

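Pancreas RNA of 2 groups was measured, 1 pool and 1 array each. The deposited values were linear signal intensities. Per the submitters' processing notes the authors used MAS5, without a version. After 2% of values was trimmed at each end, the arrays had the same mean signal. Total RNA content can therefore not be compared, and detection calls were not used here.

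Of 45101 probe sets, 64 were controls, 34945 carried 1 gene symbol, 932 several and 9160 none; only those with 1 symbol were named. Symbols were updated by gene identifier with RefSeq (GRCm38.p6), which matched 34741. The brightest probe set by mean log2 signal stood for a gene. The floor was the higher of both arrays' 60th percentiles. With 1 array a group no p-value was computed, and the number of arrays limits the precision. Promoter windows came from RefSeq.

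The members and lists were chosen with earlier results of these data known. All members were named, with the 4 highest and 4 lowest genes of the wider pathway list. Python 3.11.15, pandas 2.3.3 and statsmodels 0.14.6 were used, and the procedure was tested on simulated data. Alternatives covered centring, loess, the floor, a pseudocount and the choice of probe set.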

Additional observations from a re-analysis of the deposited data

How the results depend on the processing

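Alternatives chosen after seeing the data were members above the floor on both arrays, the median over probe sets above the floor, and the next brightest probe set. The activating median was below the inhibiting one in all 8 of the other alternatives and in 10 of 11 in all, and their difference moved to −0.10 with the median over all probe sets, to −0.10 with the median over those above the floor, and to 0.26 with the next brightest. The activating median became 0.016 after loess. The inhibiting median became 0.057 with either probe set median and −0.26 with the next brightest. The median of all members became 0, −0.040 and −0.053 under these probe set choices in the same order. The median over all probe sets enters a probe set below the floor in both pools as 0, which draws values towards 0. Members at least 1.5-fold higher numbered 0 with the floor at the 75th percentile and 1 with a pseudocount, the median over all probe sets, members above the floor on both arrays, or the next brightest probe set. They numbered 3 with no floor, the floor at the 50th percentile or the median over probe sets above the floor. Those 1.5-fold lower numbered 2 with no floor, the floor at the 50th percentile or a pseudocount, and 0 with the floor at the 75th percentile, members above the floor on both arrays or the next brightest probe set. Members at least 2-fold higher numbered 0 after loess, with the floor at the 75th percentile, above the floor on both arrays and with the next brightest probe set. Those 2-fold lower numbered 2 with no floor and 1 with the floor at the 50th percentile. Fewer members remain with the higher floor (27), the next brightest probe set (13) and members above the floor on both arrays (28). The same holds without probe sets whose suffix marks possible sharing (28). Above the floor on both arrays, the bounds Wdr24 and Wdr59 drop out of the counts. Otherwise the cause of these moves was not tested. Of 33 members, 20 kept their sign under all of those 8 that gave a value. This count is partly fixed in advance, since another floor, no floor or a pseudocount cannot reverse a sign. For a member with 1 probe set, the choice of probe set cannot reverse it either. Rptor, Rragd, Tsc1, Akt1s1 and Rictor did not reverse. They left the count only through a value of 0 with the median over all probe sets. No paired analysis was possible because each group had 1 pool.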
